A study of Arabidopsis thaliana with 24 samples.

Results

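LSM1A (AT1G19120), LSM1B (AT3G14080) and DCP2 (AT5G13570) act in the removal of the cap from Arabidopsis mRNA. They were followed here as transcripts, in seedlings kept at 17°C or 27°C, through 3 of the 22746 gene probe sets of the Affymetrix ATH1 array. The platform annotation names 2 of them, 259477_at for LSM1A and 257001_at for LSM1B. The probe set 250238_at was tied to DCP2 through the locus column of the study's supplementary rate table, which lists genes that had rates there, so that DCP2 had a rate was known beforehand. Each gene has 1 probe set, and all 3 were kept, with signals of at least 176 on every total RNA array. In the TAIR10.1 annotation LSM1A lies on chromosome 1 (6608115 to 6609369), LSM1B on chromosome 3 (4667308 to 4669194) and DCP2 on chromosome 5 (4367262 to 4370429). RefSeq lists 1 transcript for LSM1A, 4 for LSM1B and 2 for DCP2, which a single probe set does not tell apart.

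In the main route of cytoplasmic mRNA decay the poly(A) tail is shortened first. A ring of LSM proteins, LSM1 to LSM7, then binds the shortened 3′ end together with PAT1 and stimulates decapping, and DCP2 is the enzyme that cuts off the cap. The uncapped mRNA is digested from its 5′ end by XRN4. LSM1 is the subunit that makes the ring cytoplasmic, and in Arabidopsis it is encoded by LSM1A and LSM1B, whereas a ring with LSM8 in its place is nuclear and serves splicing. DCP2 works with DCP1, the scaffold VARICOSE (VCS) and DCP5.

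The series holds 24 arrays in 8 groups of 3 biological replicates, of whole Columbia seedlings with no mutant or transgene. All were germinated for 3 days at 22°C, moved to 17°C or 27°C for 7 days on MS agar under 12 h of light and 12 h of dark, and floated on MS medium for 12 h before the start. At each temperature total RNA was taken at time 0, shortly after dawn and without the uracil analog 4SU, and again at the end of a labeling period with 4SU, after 2 h at 17°C and 1 h at 27°C. The RNA of the end samples was also separated on streptavidin columns into a labeled, newly synthesised fraction (NS) and an unlabeled, pre-existing fraction (PE), each with its own arrays. Because no sample without 4SU was taken at the end, the passing of time and the presence of 4SU cannot be told apart, and the length of labeling differs with temperature. The labels give 1.5 mM 4SU for all labeled samples, while the study's methods describe concentrations set for each temperature. A tissue is a mixture of cells, so fewer cells expressing a gene and less RNA per cell cannot be told apart either.

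Replicate arrays of a group correlated at 0.959 to 0.986 (Pearson's r of log2 signals) and no arrays were identical. Of 9 listed markers of green tissue and root, 2 root genes had a named probe set: PYK10 lay between 9787 and 16390 and EXPA7 between 129 and 221 over the total RNA arrays, and green markers were not checked here. At time 0 these root signals summed to 12530 to 16560 in the cool and 9954 to 13980 in the warm seedlings, and at the end to 11840 to 16180 and 10620 to 13030. Its part in the differences below was not tested. Signals are in array units, scaled by the authors so that every array has the same trimmed mean of 500. They show a transcript's level relative to the other transcripts of the same array, not per cell, and the levels of different probe sets are not compared. A difference was called where limma gave an adjusted p under 0.01 and a fold above 1.5. Whether the signals of 2 groups overlapped is given as a description only. The share of all probe sets without overlap is not given here, so a lack of overlap does not set a gene apart.

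DCP2 had the clearest change of the 3 transcripts: its level was highest at dawn in the cool seedlings and fell there during labeling. Its 17°C time 0 signals were 474, 486 and 572 for replicates 1 to 3, and its signals at the end of labeling were 205, 233 and 253. The groups did not overlap, with means of 511 ± 53.4 and 230.4 ± 24.5 (SD, n = 3). The fall was 2.22-fold (log2 -1.15, SE 0.20, 95% interval -1.58 to -0.72, limma adjusted p = 0.00094), which put DCP2 at the 1.48 percentile of all changes. Of the 12906 kept probe sets 12.4% were called in this comparison and 6.6% were called lower, and DCP2 alone of the 3 genes was called. The call held in all 12 fits that left out 1 total RNA array, and was lost where no probe set was filtered out (adjusted p = 0.014).

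At 27°C the DCP2 signals were 238, 396 and 262 at time 0, and 201, 270.1 and 176 at the end. These groups overlapped, with the second replicate high at both times. The log2 difference was -0.46 (SE 0.20, limma adjusted p = 0.08) and was not called, against a background of 25.8% called. That the change differed between the temperatures was not shown: the difference of both changes was 0.69 (SE 0.28, 95% interval 0.09 to 1.30, adjusted p = 0.15), in a comparison where 2.38% of probe sets were called. The labeling period was also shorter at 27°C.

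At time 0 the DCP2 level was 1.75-fold lower at 27°C than at 17°C, with means of 299 ± 84.9 and 511 ± 53.4 (SD, n = 3). The highest 27°C signal, 396, lay below the lowest 17°C signal, 474. The log2 difference was -0.81 (SE 0.20, 95% interval -1.23 to -0.38, limma adjusted p = 0.0057) and was called, where 22.8% of probe sets were called and 12.1% lower. This call rests on the same cool time 0 arrays as the one above, and it is not firm. It was lost in 5 of the 6 fits that left out one time 0 array (adjusted p 0.013 to 0.031), all except the fit without the second 27°C array. At the end of labeling the means were 216 ± 48.9 and 230.4 ± 24.5 and the signals overlapped. That log2 difference was -0.11 (SE 0.20, 95% interval -0.54 to 0.31, adjusted p = 0.72).

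LSM1A was the steadiest of the 3 between replicates in total RNA, with coefficients of variation of 2.16 to 9.78%. Its time 0 signals were 1711, 1542 and 1633 at 17°C, whereas at 27°C they were 1586, 1519 and 1554. These groups overlapped, with a log2 difference of -0.07 (SE 0.12, limma adjusted p = 0.7). At the end of labeling its signals were 1402, 1348 and 1229 at 17°C, whereas at 27°C they were 1171, 1133 and 970.2. All 3 warm arrays lay below all 3 cool ones there, yet the log2 difference of -0.28 (SE 0.12, 95% interval -0.55 to -0.02) did not pass, at an adjusted p of 0.12. In this comparison of the end samples, where 10.8% of probe sets were called, none of the 3 genes was.

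Within each temperature every LSM1A signal at the end lay below every signal at time 0. At 17°C the log2 difference was -0.30 (SE 0.12, limma adjusted p = 0.1) and was not called. At 27°C it was -0.51 (SE 0.12, 95% interval -0.78 to -0.25, adjusted p = 0.0044), but the fold of 1.43 stayed under the limit, so this was not a call either. The difference of both changes was -0.22 (SE 0.18, adjusted p = 0.5).

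LSM1B, which encodes the same subunit, showed no such difference between the time points. Its signals were 431, 663 and 389 at time 0 and 442, 563 and 495 at the end at 17°C, and 394, 308 and 411 at time 0 and 327, 354 and 431 at the end at 27°C. The second 17°C replicate was high at both times. The groups of each temperature overlapped, and the log2 differences of end against time 0 were 0.05 (SE 0.20, 95% interval -0.37 to 0.47, limma adjusted p = 0.89) at 17°C and 0.00 (SE 0.20, 95% interval -0.42 to 0.42, adjusted p = 1) at 27°C. Between the temperatures it was lower in the warmth by log2 -0.39 at time 0 (SE 0.20, adjusted p = 0.14) and by log2 -0.43 at the end (SE 0.20, adjusted p = 0.13), neither of them called.

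**Figure D1:**
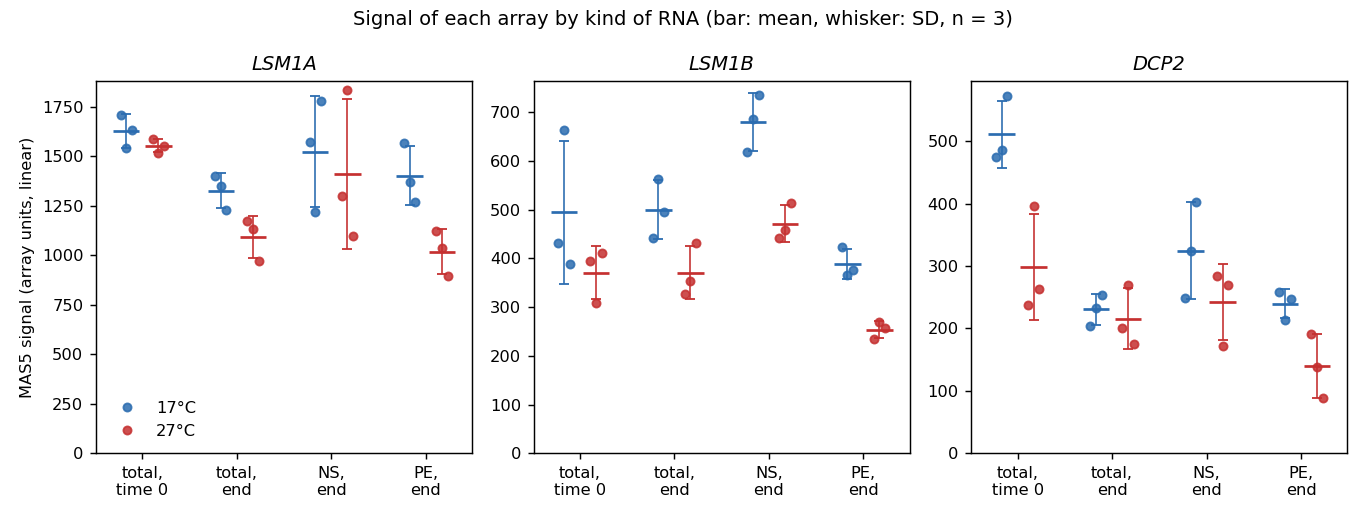
MAS5 signal (array units, linear axis from 0) of LSM1A, LSM1B and DCP2 on each array, by kind of RNA, at 17°C (blue) and 27°C (red); points are replicates 1 to 3 from left to right, bars are means and whiskers are SDs. DCP2 at time 0 and 17°C (474 to 572) lies above its other 7 groups, and LSM1B in 27°C PE RNA (235 to 269) lies below its other 7.

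The NS and PE fractions show what was made during labeling and what was left from before. LSM1B was the gene with the clearest contrast between them. In its 17°C samples the NS signals were 619, 686 and 736 and the PE signals were 423, 366 and 376. At 27°C the NS signals were 442, 458 and 515 and the PE signals 235, 269 and 257. NS lay above PE without overlap at both temperatures. The NS signal was 1.75-fold higher at 17°C (log2 0.81, SE 0.13, limma adjusted p = 0.00012) and 1.86-fold higher at 27°C (log2 0.89, SE 0.13, adjusted p = 5.6e-05). These calls are to be read against a background of 57.4% of all probe sets called at 17°C, with 35.6% of all called higher in NS, and 55.7% called at 27°C, with 37.7% of all called higher. The median of all probe sets was 0.29 at 17°C and 0.37 at 27°C, so LSM1B stood at the 69.3 and 71.1 percentiles. Both calls were lost after quantile normalization (log2 0.56, adjusted p = 0.0034 but under the fold limit, and 0.39, adjusted p = 0.029), which moved the medians of all probe sets by -0.24 and -0.31.

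Within the fractions the LSM1B signal was also lower at 27°C, a difference called in PE RNA but not in NS RNA. Its PE signal was 1.53-fold lower at 27°C, with means of 254 ± 17.2 against 388 ± 30.8 (SD, n = 3) and no overlap. The log2 difference of -0.61 (SE 0.13, 95% interval -0.90 to -0.33, limma adjusted p = 0.0065) was called, where 8.93% of probe sets were called and 5.52% lower. The call sits close to the fold limit. It was lost without a filter (adjusted p = 0.02), in 7 of 12 fits without 1 array (adjusted p 0.01 to 0.028), those without any one of the 6 PE arrays or without the second 17°C NS array, and after quantile normalization (log2 -0.44, adjusted p = 0.051). In NS RNA the means were 472 ± 38.2 and 680.1 ± 58.8, also without overlap, and the log2 difference of -0.53 (SE 0.13, adjusted p = 0.012) was not called. Among NS arrays 12% of probe sets were called.

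DCP2 signals in NS RNA were 248, 323 and 403 at 17°C, whereas at 27°C they were 284, 172 and 269, which overlap. In PE RNA they were 258, 214 and 247 at 17°C, whereas at 27°C they were 192, 139 and 89.2, where the cool arrays all lay above the warm ones. The PE difference was log2 -0.84 (SE 0.27, 95% interval -1.43 to -0.25) and was not called, at a limma adjusted p of 0.044. The NS difference was -0.43 (SE 0.27, adjusted p = 0.27). NS against PE gave 0.42 (SE 0.27, adjusted p = 0.19) at 17°C and 0.82 (SE 0.27, adjusted p = 0.015) at 27°C, neither called. The 27°C value passed in the 2 fits that left out the second NS array (1.05, adjusted p = 0.0055) or the first PE array (1.08, adjusted p = 0.0036).

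LSM1A signals overlapped between the fractions at both temperatures. Its NS signals were 1572, 1221 and 1778 at 17°C, whereas at 27°C they were 1299.7, 1834 and 1098, and its PE signals were 1566, 1370.3 and 1272 at 17°C, whereas at 27°C they were 1122, 1038 and 898. The NS groups were widely spread, and the second NS array was the lowest at 17°C and the highest at 27°C. NS against PE gave log2 0.11 (SE 0.20, limma adjusted p = 0.64) at 17°C and 0.44 (SE 0.20, adjusted p = 0.062) at 27°C. The temperature differences were -0.13 (SE 0.20, adjusted p = 0.68) in NS and -0.46 (SE 0.20, adjusted p = 0.12) in PE RNA. None of the 3 genes was called in the test of whether the NS to PE difference changed with temperature, where 0.0697% of probe sets were called.

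**Figure D2:**
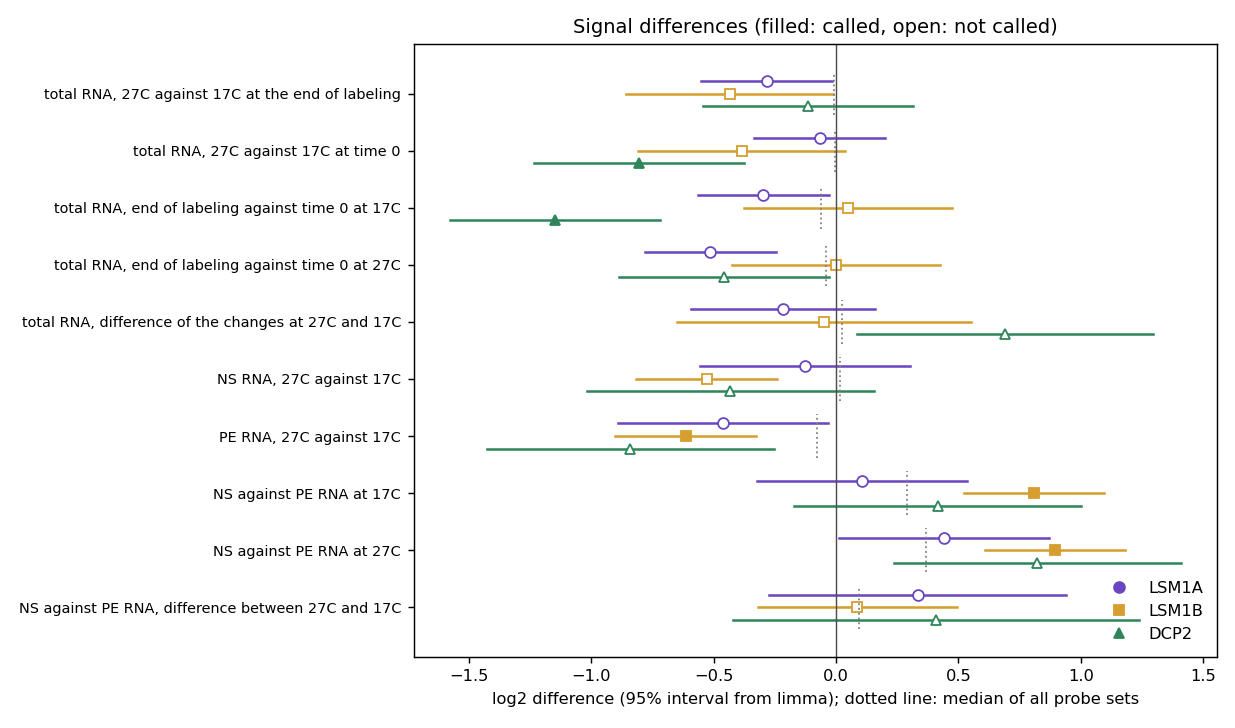
Log2 differences of the 3 genes in the 10 signal comparisons (horizontal axis, with 95% intervals from limma); filled symbols were called and open ones were not, and dotted lines mark the median of all 12906 probe sets. The 5 filled symbols are DCP2 at time 0 between temperatures and at 17°C over labeling, and LSM1B in PE RNA between temperatures and in NS against PE at both temperatures.

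Turning the signals into rates needs the fractions on one scale. A regression of PE over total on NS over total across the kept probe sets gave factors of 0.134 for NS and 0.847 for PE at 17°C, and 0.219 and 0.769 at 27°C. Fitted per replicate, the NS factors were lower, at 0.0889 to 0.122 and 0.148 to 0.189. The shared factors served all 3 replicates of a temperature. The SDs of shares and rates, and the p-values of rates between temperatures, therefore leave out the error of the factors. With the shared factors, newly made RNA was 21.8 ± 2.63% of the summed scaled NS and PE signals of LSM1B at 17°C and 34.6 ± 1.87% at 27°C (SD, n = 3). This is a share of that sum, not of the measured total. The same share was 14.8 ± 3.02% and 28.0 ± 4.73% for LSM1A, and 17.7 ± 3.90% and 34.0 ± 10.7% for DCP2. The medians of all kept probe sets were 16.4% and 27.0%. The scaled NS and PE signals should add up to the total: they gave 105 ± 5.99% and 99.9 ± 5.25% of it for LSM1A, but 85.3 ± 14.2% and 81.2 ± 8.14% for LSM1B, at the 8.84 and 6.63 percentiles. For DCP2 the sum was 108 ± 13.8% at 17°C and 104, 53.5 and 72.6% in the 3 replicates at 27°C, so the warm DCP2 rates rest on fractions that do not add up well.

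A half-life was computed from the PE signal and the total at time 0, and a transcription rate from the NS signal and that half-life. Rates were had for 6061 probe sets whose decay constant was above 0 in all 6 replicates, and all 3 genes were among them. Transcription rates rose with temperature in all 3. LSM1A went from 119.7, 94.3 and 146 array units per hour at 17°C to 379.7, 544.0 and 351 at 27°C. LSM1B went from 45.5, 65.9 and 54.6 to 139, 121 and 159. DCP2 went from 24.0, 34.2 and 42.9 to 78.1, 67.5 and 107. No cool and warm replicates overlapped in any of the 3. The log2 differences were 1.82 (SE 0.23, limma adjusted p = 1.4e-05), 1.35 (SE 0.19, adjusted p = 4.3e-05) and 1.33 (SE 0.25, adjusted p = 3e-04) in the same order. Since 98.1% of all probe sets with rates passed this test, and 98.0% of all passed as higher, such a rise does not set the 3 genes apart.

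The half-life of the LSM1A mRNA shortened from 5.45, 4.89 and 3.34 h at 17°C to 1.14, 1.08 and 0.855 h at 27°C, without overlap. Means were 4.56 ± 1.10 h and 1.02 ± 0.150 h (SD, n = 3), and the decay constant was higher by log2 2.14 (SE 0.32, 95% interval 1.36 to 2.91, limma adjusted p = 0.0062). Of all probe sets with rates 64.5% had a decay constant called, and 64.4% of all had one called higher at 27°C. The half-lives of the LSM1B mRNA were 7.54, 1.82 and 6.92 h at 17°C and 0.889, 1.74 and 0.947 h at 27°C. The short cool value belongs to the second replicate, whose time 0 signal of 663 was also the highest, and it lay close to the longest warm value. The LSM1B decay constant was higher by log2 2.01 (SE 0.63, 95% interval 0.49 to 3.52, adjusted p = 0.031). That call was lost without replicate 1 or replicate 3 at either temperature (adjusted p 0.085 to 0.11).

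DCP2 had a short-lived mRNA in the cool seedlings by this measure. Its half-lives were 1.79, 1.41 and 1.38 h at 17°C and 1.45, 0.529 and 0.517 h at 27°C, and the first warm replicate overlapped the cool ones. The mean of 1.52 ± 0.228 h at 17°C stood at the 6.86 percentile of all probe sets with rates, whose median was 3.54 h. At 27°C the mean of 0.833 ± 0.537 h stood at the 30.4 percentile, with a median of 1.10 h over all. The decay constant differed by log2 1.04 (SE 0.47, 95% interval -0.10 to 2.18, limma adjusted p = 0.091), which did not pass. It passed without the first warm replicate (1.52, limma adjusted p = 0.03). The scaled fractions of that replicate summed to 104% of its total, and those of the remaining warm replicates to 53.5 and 72.6%. That pass therefore rests on the warm replicates whose fractions do not add up well. LSM1A stood at the 63.2 and 45.6 percentiles of half-life at 17°C and 27°C, and LSM1B at the 70.2 and 54.6.

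The DCP2 half-life depends on the starting level. The formula sets the PE signal at the end against total RNA at time 0, and at 17°C the DCP2 total itself fell 2.22-fold between those points. The alternatives tried, the sum of the scaled NS and PE signals and the end total, take the level as unchanged over labeling. The called fall of DCP2 at 17°C goes against that, and LSM1A changed by log2 -0.51 at 27°C. Their values below therefore show the dependence on this choice and are not equally good estimates. With the sum as the starting level, the DCP2 half-life was 7.41 ± 2.03 h at 17°C and 1.80 ± 0.609 h at 27°C. The decay constant was then called (log2 2.07, limma adjusted p = 7.2e-05). With the total at the end as the starting level DCP2 had no rate at 17°C, because the scaled PE signal of the first replicate exceeded the total. LSM1A gave 8.93 ± 1.82 h and 2.15 ± 0.394 h with the sum, and 15.0 ± 8.79 h and 2.10 ± 0.153 h with the end total. LSM1B moved least, to 5.70 ± 0.830 h and 1.64 ± 0.112 h with the sum. With the mean of the 3 time 0 arrays in place of the same-numbered one, the LSM1B half-lives were 3.48 ± 0.736 h and 1.08 ± 0.112 h, with smaller SDs than before.

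**Figure D3:**
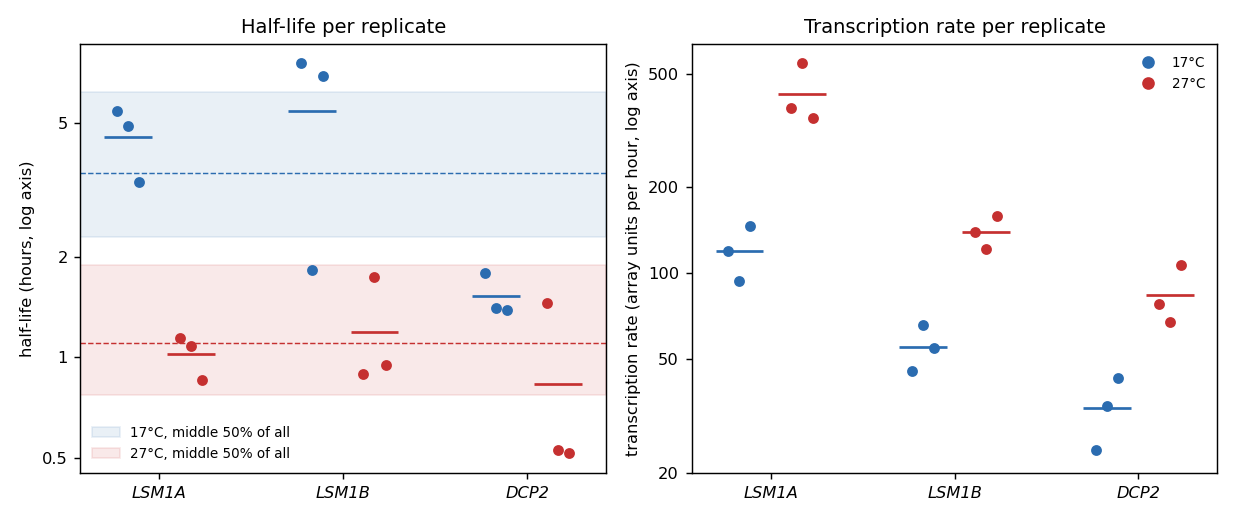
Half-life in hours (left) and transcription rate in array units per hour (right), both on log axes, for each replicate (points, 1 to 3 from left to right) at 17°C (blue) and 27°C (red), with bars at the means. Shading in the left plot is the middle 50% of the 6061 probe sets and dashed lines are their medians, 3.54 h and 1.10 h; the cool DCP2 points lie below the cool band, while 1 cool LSM1B point lies far from the other two.

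The temperature coefficient Q10, here the mean transcription rate at 27°C over that at 17°C and the mean half-life at 17°C over that at 27°C, puts synthesis and decay side by side. For LSM1A the Q10 was 3.54 ± 1.16 for transcription and 4.46 ± 1.25 for decay. LSM1B had 2.53 ± 0.576 and 4.55 ± 3.20, and DCP2 2.50 ± 0.927 and 1.83 ± 1.21 (SD propagated from 3 replicates at each temperature). Over the 9 pairings of a warm with a cool replicate the Q10 of decay ran from 2.93 to 6.38 for LSM1A, from 1.05 to 8.48 for LSM1B and from 0.950 to 3.46 for DCP2, where 7 of 9 were above 1. The medians of all probe sets were 3.46 for transcription and 2.99 for decay. The transcription Q10 of LSM1B and DCP2 stood at the 16.8 and 15.8 percentiles and that of LSM1A at the 53.4, whereas the decay Q10 of LSM1A and LSM1B stood at the 74.1 and 75.0 percentiles and that of DCP2 at the 19.4. None of the 3 genes passed limma's test against the median Q10. In that test 14.5% of probe sets passed for transcription and 0% for decay. The nearest was LSM1B transcription, at log2 -0.46 (SE 0.20, adjusted p = 0.15). With the sum as the starting level, which takes the DCP2 level as unchanged over labeling, the DCP2 decay Q10 was 4.12.

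**Figure D4:**
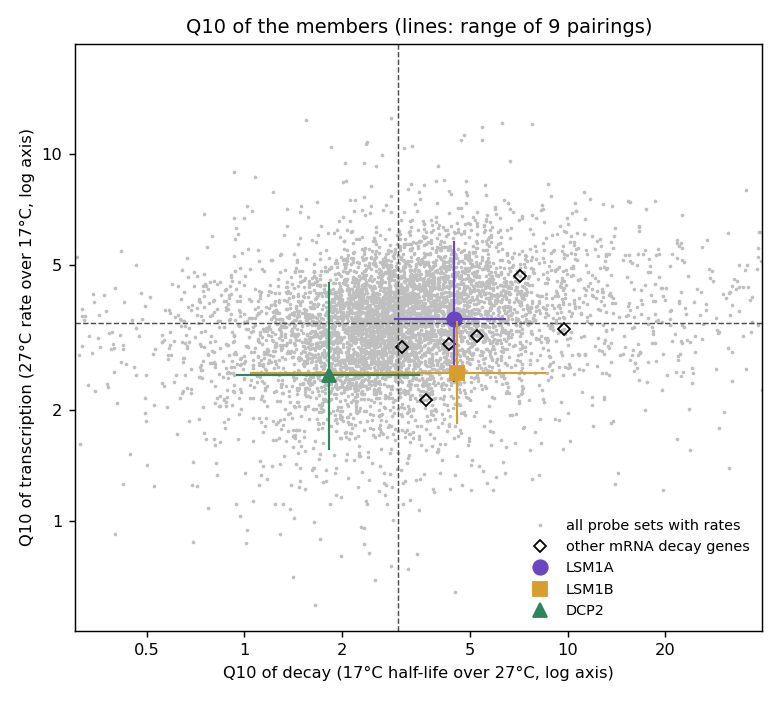
Q10 of transcription (vertical) against Q10 of decay (horizontal), both on log axes, for the 3 genes (large symbols, lines giving the range of 9 pairings), for the other mRNA decay genes with rates (diamonds) and for all probe sets with rates (grey), of which 139 lie outside the axes. Dashed lines are the medians, 3.46 and 2.99; LSM1A and LSM1B lie to the right of the decay median and DCP2 to its left, and the lines of all 3 cross it.

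Whether the genes differed from each other in their response was tested through their log2 ratio within an array or replicate, in 18 comparisons of 3 pairs. With 3 against 3 samples the exact two-sided permutation test cannot go below p = 0.1, so no pair could pass. LSM1A over DCP2 did not overlap between temperatures in total RNA at time 0 (difference of log2 ratios 0.74, SE 0.26, exact permutation p = 0.1, adjusted 0.75). The same pair did not overlap in the decay constant (1.09, SE 0.45, exact permutation p = 0.1, adjusted 0.75). In the other 16 comparisons the temperatures overlapped. A lack of overlap corresponds to that p of 0.1, so 2 of 18 comparisons without overlap do not set a pair apart. Between the LSM1 genes the difference was 0.13 in the decay constant (SE 0.81, exact permutation p = 0.9) and 0.47 in transcription (SE 0.42, exact permutation p = 0.4), and these wide errors do not show that the genes respond alike.

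Over the 8 group means the signals of LSM1A and DCP2 correlated at r = 0.882, LSM1A and LSM1B at 0.673, and LSM1B and DCP2 at 0.664. These are descriptions of 8 points that share seedlings, since total, NS and PE RNA of the end samples come from the same extracts. Among 7719 named probe sets the pattern most like LSM1A was that of WES1 (r = 0.974), an enzyme that conjugates auxin to amino acids, then ETFBETA (0.972), a subunit of a mitochondrial electron carrier, and AT3G57930 (0.969). For LSM1B the nearest were AT3G22104 (0.999), AT3G07565 (0.988) and COL4 (0.982), a CONSTANS-like protein. For DCP2 they were DRM2 (0.980), a DNA methyltransferase, NDL1 (0.975) and AT1G19680 (0.971). These are the highest values picked from all 7719 candidates. With 8 points high values arise easily, as 1% of candidates reached 0.90 for LSM1A, 0.942 for LSM1B and 0.903 for DCP2.

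The wider mRNA decay machinery gives the setting. A list of 54 genes of decapping, deadenylation, 5′ to 3′ decay, the exosome and nonsense-mediated decay held 30 with a named probe set, 29 of them kept, the 3 genes included. DCP1, VCS, XRN4, LSM2, LSM5, LSM7 and LSM8 were not measured by a named probe set kept here. At the end of labeling 0 of the 29 were called between temperatures, where 10.8% of all probe sets were, with a median log2 difference of -0.07 against -0.01 for all probe sets. At time 0 the list had 1 gene called higher at 27°C and 3 lower of 29, where 22.8% of all probe sets were called. LSM3A, a subunit shared by the cytoplasmic and nuclear rings, was higher (log2 0.61, limma adjusted p = 0.0049). RRP42 and RRP41L (AT4G27490), subunits of the exosome that digests RNA from its 3′ end, were lower (-1.18, adjusted p = 2.9e-05, and -1.04, adjusted p = 0.00017), as was DCP2. The LSM3A call was lost in 5 of 12 fits without 1 array (adjusted p up to 0.026), and those of RRP42 and RRP41L held in all 12.

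During labeling at 17°C the list had 1 gene called up, the exosome subunit RRP46 (log2 0.60, limma adjusted p = 0.0057, lost without any one of the 6 cool arrays), and 1 down, DCP2, where 12.4% of all probe sets were called. At 27°C it had 5 called up and 0 down, all of them exosome subunits, led by RRP41L (1.25, adjusted p = 2.9e-05) and CSL4 (0.95, adjusted p = 0.00016). The list contains 9 kept exosome genes. In the same comparison DCP2 had -0.46 and LSM1A -0.51, neither called, and 11.3% of all probe sets were called higher. One of the 5, RRP43, was lost in 3 of 12 fits without 1 array. That these changes differed between the temperatures was not shown. In the difference of both changes 0 of the 29 genes were called, where 2.38% of all probe sets were. Its limma adjusted p ran from 0.013 (RRP41L) to 0.52 (RRP43) for these 5. The rises of RRP42 and RRP41L rest on the same warm time 0 arrays as their calls between temperatures at time 0.

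In NS against PE RNA the LSM ring was split. At 17°C LSM1B was called higher in NS, while all 5 other measured ring subunits, which both rings share, were called lower. LSM3B had the largest difference (log2 -2.06, limma adjusted p = 4e-06), followed by LSM6B (-0.97), LSM3A (-0.88), LSM6A (-0.72) and LSM4 (-0.69), and LSM1A lay between at 0.11. At this temperature 21.9% of all probe sets were called lower. The same 5 were called lower after quantile normalization, and all but LSM6A in every fit without 1 array (LSM6A was lost in 4 of 12). At 27°C only LSM3B was called lower (-1.33, adjusted p = 0.00017), and after quantile normalization LSM6B was too (-0.72, adjusted p = 0.0078). None of the 29 genes was called in the test of the difference between the temperatures, where limma adjusted p ran from 0.15 (LSM3A) to 0.28 (LSM6B) for these 5 subunits. Over the whole list 10 genes were called higher and 5 lower at 17°C, with medians of 0.39 for the list and 0.29 for all probe sets, and 15 higher and 1 lower at 27°C, with medians of 0.73 and 0.37. Of all probe sets 35.6% were called higher at 17°C and 37.7% at 27°C. These counts became 5 and 5, and 6 and 2, after quantile normalization, where the LSM1B calls were among those lost.

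PAT1, the decapping activator that binds the LSM1 ring, was higher in NS than in PE RNA at 17°C (log2 1.30, limma adjusted p = 4e-05) and 27°C (1.71, adjusted p = 4.4e-06), in the same direction as LSM1B. UPF2, a factor of nonsense-mediated decay, had the largest difference among genes higher in NS at 17°C (1.33, adjusted p = 5.7e-06), and XRN2, a nuclear 5′ exonuclease, the second largest among such genes at 27°C (1.19, adjusted p = 3.3e-05). Between temperatures LSM3A was called higher in NS RNA (0.98, adjusted p = 0.004). PAT1 was called lower at 27°C in PE RNA (-0.84, adjusted p = 0.0076), as was LSM1B. The calls of LSM3A in NS RNA and PAT1 in PE RNA were lost in 4 and 8 of 12 fits without 1 array, and the PAT1 call also after quantile normalization. DCP5, an activator of DCP2, was not called in any of the 10 signal comparisons.

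Rates were had for 9 genes of the list, the 3 genes and LSM4, PAT1, PAT1H2, RH6, CCR4B and UPF3. All 9 had a higher transcription rate at 27°C, with a median log2 difference of 1.60 against 1.79 for all probe sets, of which 98.0% were called higher. The decay constant was called higher for 7 of the 9, all but DCP2 and RH6, a helicase of the decapping complex (limma adjusted p = 0.052), with a median of 2.01 against 1.55 and 64.4% of all probe sets called higher. In ratio, the half-life of PAT1 shortened the most, from 7.38 ± 1.88 h to 0.757 ± 0.112 h (SD, n = 3), a decay Q10 of 9.75. None of the 9 passed the test against the median Q10.

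**Figure D5:**
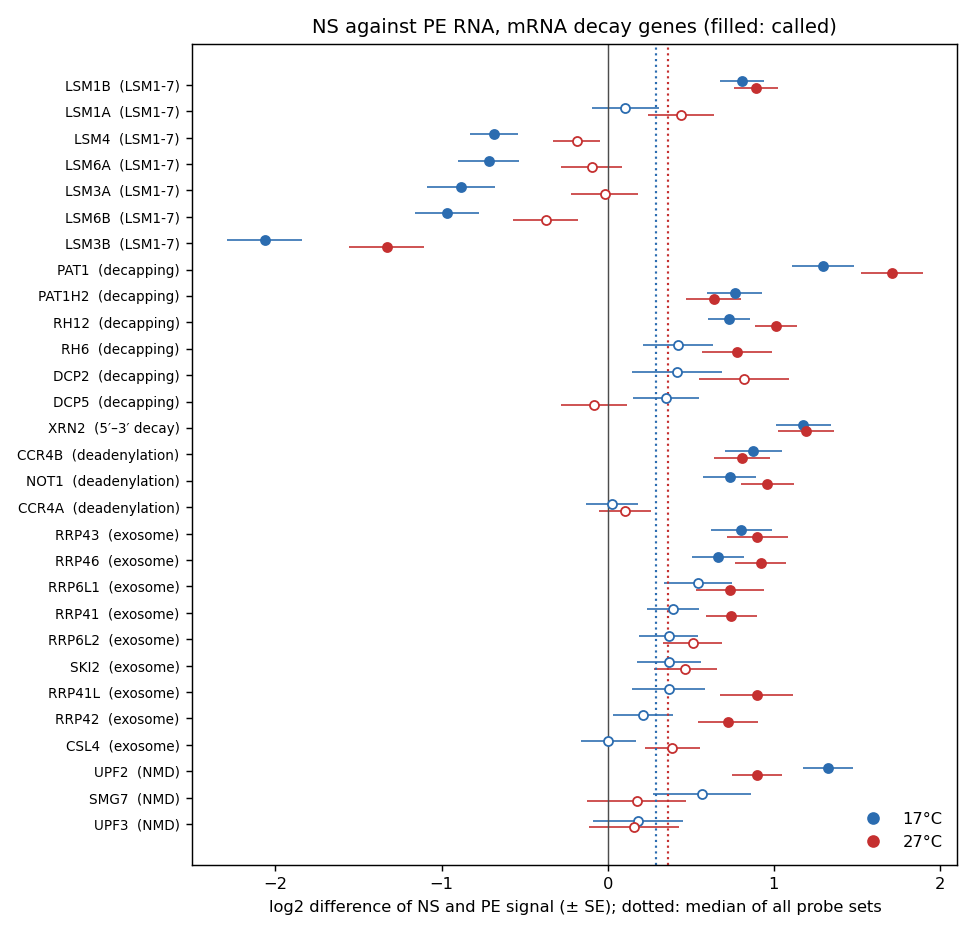
Log2 difference of NS and PE signal (horizontal axis, whiskers are SEs from limma) for the 29 kept mRNA decay genes, grouped by complex, at 17°C (blue) and 27°C (red); filled points were called and dotted lines are the medians of all probe sets, 0.29 and 0.37. LSM1B lies at 0.81 and 0.89, while the 5 shared ring subunits LSM4, LSM6A, LSM3A, LSM6B and LSM3B lie below 0 at 17°C.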

How the data were processed

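The authors deposited 1 value table of 24 ATH1 arrays with MAS5 intensity on a linear scale (MAS5 is named in the submitters' processing notes), each array scaled to a trimmed mean of 500. Total, NS and PE RNA therefore share no absolute scale. Detection calls, used in the study's methods to drop absent genes, were not used here. In their place 12906 of 22746 gene probe sets (of 22810 rows, 64 controls left out) with a signal of at least 50 on all 12 total RNA arrays were kept. A symbol came from the platform annotation for 13436 probe sets with 1 gene and from the study's supplementary loci for 828, while 503 had several genes and 7979 none. Names were updated through RefSeq (TAIR10.1). All columns of the value table were mapped to samples.

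Log2 signals were fitted with limma (version 3.58.1, R 4.3.3) with Benjamini-Hochberg adjustment over all kept probe sets, in 1 fit of the 12 total RNA arrays and 1 of the 12 NS and PE arrays. After the regression of PE over total on NS over total, the half-life was -t ln 2 / ln(P/A), with t the labeling time, P the scaled PE signal and A the time 0 total of the same replicate number, and the transcription rate followed from the scaled NS signal and the decay constant. Rates were tested on log2 values at an adjusted p under 0.05. Time 0 and end samples are different seedlings tied here only by a replicate number, and whether a number marks a shared batch is not known. Deviations from the group means of the same number correlated at -0.0051 to 0.16 at 17°C and 0.025 to 0.041 at 27°C. Replicate SDs may therefore include an arbitrary pairing. NS and PE arrays of a number come from 1 extract, and their deviations from the group means correlated at 0.15 to 0.33, so a fit with the extract as a block was added after the data were seen. Simulated data with known changes were used to test the scripts. Alternatives were quantile normalization, a pseudocount of 16, no filter or a minimum of 100, a replicate block, other starting levels, and leaving out each array. For the rates, factors fitted per replicate were a further alternative. The number of arrays limits the precision. A limma p-value rests on a spread pooled over all groups of its fit and moderated over all probe sets. It does not measure the spread of the 3 replicates compared alone.

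The 3 genes, the decay list and the tests were chosen with earlier results of these data known. Other genes named were the decay list's called members between temperatures in total RNA, its 2 largest called changes each way in other comparisons, direct partners of the 3 genes, and the 3 closest patterns per gene by Pearson's r.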

Additional observations from a re-analysis of the deposited data

How the results depend on the processing

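Quantile normalization moved the split of calls from 61.9 to 50.3% higher among all NS against PE calls at 17°C, from 67.8 to 51.6% at 27°C, from 38.1 to 51% in PE RNA between temperatures and from 33.3 to 75% in the difference of NS against PE, where 9 and 4 probe sets were called. Under it 0 of the 3 genes were called in NS against PE at either temperature and in PE RNA, and 1 (LSM1B, log2 -0.62) in NS RNA between temperatures. It turned LSM1B at 27°C over labeling to 0.062, DCP2 in NS against PE at 17°C to -0.015 and LSM1B in the difference of NS against PE to -0.17, none of which was called. Without a filter the number of the 3 genes called was 0 at time 0 (DCP2, limma adjusted p = 0.033), 0 over labeling at 17°C (DCP2, adjusted p = 0.014) and 0 in PE RNA (LSM1B, adjusted p = 0.02). LSM1B in PE RNA was also lost with a pseudocount of 16 (log2 -0.58, under the fold limit), leaving 0. A replicate block left 0 in PE RNA (LSM1B, adjusted p = 0.01) and 1 for the decay constant (LSM1B, adjusted p = 0.068). Between the temperatures, deviations of the same replicate number correlated at -0.2 to 0.11, and those of other numbers at up to 0.19. With 3 replicates this does not settle whether a number marks a shared batch. The block by RNA extract changed no call of the 3 genes or of the decay list (10 higher and 5 lower at 17°C, 15 and 1 at 27°C).

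With the end total as starting level the LSM1A decay Q10 was 7.15, and with the sum of scaled fractions the DCP2 decay Q10 was 4.12. Against the median Q10, LSM1A transcription turned to -0.039 with the end total and -0.13 with the sum, and with the sum LSM1B decay turned to -0.026 and DCP2 decay to 0.26, none passing. The cause was not tested. With the mean of the time 0 arrays, added after the data were seen, DCP2 decay passed (1.15, limma adjusted p = 0.019). Factors fitted per replicate gave lower mean transcription rates at 17°C and 27°C. These were 88.3 and 315 array units per hour for LSM1A rather than 120 and 425. For LSM1B they were 42.3 and 105 rather than 55.3 and 140, and for DCP2 25.6 and 63.7 rather than 33.7 and 84.2. The LSM1B half-life at 17°C was then 7.53 ± 4.98 h rather than 5.43 ± 3.13 h.

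Leaving out 1 array gave 0 to 1 of the 3 genes called at time 0, 0 to 1 in PE RNA, and 1 to 2 in NS against PE at 27°C. Leaving out 1 replicate of the rates at one temperature gave 1 to 2 for the decay constant and an LSM1B transcription Q10 of 2.08 to 3.22. Uncalled log2 differences that changed sign in either kind of fit ran from -0.10 to 0.28 (LSM1B over labeling at 17°C), -0.13 to 0.085 (LSM1B at 27°C), -0.28 to 0.10 (LSM1B, difference of changes), -0.29 to 0.021 (DCP2 between temperatures at the end), -0.33 to 0.036 (LSM1A in NS RNA), -0.013 to 0.26 (LSM1A in NS against PE at 17°C) and -0.16 to 0.18 (LSM1A transcription against the median Q10).

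The counts of all probe sets called without a filter were 677 against 1399 at the end between temperatures, 1917 against 2941 at time 0, 736 against 1598 over labeling at 17°C, 42 against 307 for the difference of changes, 754 against 1554 in NS RNA, 502 against 1152 in PE RNA and 510 against 881 for transcription against the median Q10. Without the third warm replicate 2185 rather than 3907 decay constants were called. With the sum as starting level, which gives every kept probe set a rate, the counts were 12518 against 5944 for transcription, 12771 against 3907 for decay, and 2155 against 881 and 471 against 0 in the tests against the median Q10, where the end total gave 1414 for transcription. The 9 calls in the difference of NS against PE became 0 to 24 over the alternatives.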
